A study of Mus musculus with 9 samples.

Results

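The small RNAs recovered with the protein Sfpq were compared with those of the whole extract, using every entry of the table that sets Sfpq RNA-IP beside Input. The table holds 1939 entries: 549 mature miRNAs, 523 snoRNAs, 224 tRNAs, 84 rRNAs and 559 piRNA entries. It rests on 3 Sfpq RNA-IP libraries and 3 Input libraries of the 9 libraries of the series, all from mouse cells for which the labels name no treatment. The labels give RAW 264.7, a macrophage-like line, as the cell type and a stem cell as the source. The design text of the series names P19 embryonal carcinoma cells, whereas the study's results name RAW 264.7 for this RNA-IP. Among 8 miRNAs typical of macrophages and other myeloid cells all 8 had signal, and they made up 4.26% of the Sfpq RNA-IP and 4.63% of Input. Most of this was miR-21a-5p, with 355121 of 423924 in the Sfpq RNA-IP and 235118 of 298413 in Input. miR-223-3p had 130.0 against 90.2. All 5 listed epithelial miRNAs had signal as well, so presence alone does not identify the cells. Among 10 miRNAs typical of pluripotent stem cells only miR-302d-3p had signal, with 2.38 in the Sfpq RNA-IP and 0 in Input. No RNA-IP with a control antibody was among the libraries, so RNA held by Sfpq and RNA held by the beads or the antibody cannot be told apart.

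Sfpq is a nuclear RNA-binding protein that pairs with NonO and Pspc1 and is a core component of paraspeckles, nuclear bodies built on a long noncoding RNA. It takes part in splicing, transcription and the retention of RNA in the nucleus, and the study examined it as a partner of the Argonaute protein Ago2, which carries miRNAs to their target mRNAs. A mature miRNA is one strand of a short duplex cut from a hairpin precursor, and its bases 2 to 8, the seed, pair with the target. For an RNA-IP, an antibody pulls the protein out of the extract and the attached RNA is sequenced, and Input is RNA of such an extract that did not go through the pull-down. The question addressed was which small RNAs were over- or under-represented with Sfpq.

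Each value is a signal, the mean of the scaled reads of 3 libraries as pooled by the authors. With 1 pooled value per group there is no spread between libraries, so no test was run and no value carries an error between replicates. The Sfpq RNA-IP column summed to 9957738 and the Input column to 6449023. One unit of signal corresponded to 3.43 reads in the Sfpq RNA-IP and 2.97 reads in Input, which gives the counting error attached to single log2 ratios below (SE, counting only). Ratios are log2 of Sfpq RNA-IP over Input for the 773 entries with a mean of at least 20 and signal in both groups, and "above" or "below" means at least 2-fold. Because the Sfpq RNA-IP column sums to 1.54 times the Input column, an entry with a log2 ratio under 0.63 held a smaller share of the Sfpq RNA-IP than of Input. Shares and ranks are therefore given beside the ratios.

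The mature sequences of the miRNAs on which the results below turn are given here from RefSeq (GRCm38.p6), 5′ to 3′, with the seed in capitals. The first set is the most abundant let-7 RNAs, which share a seed and differ in their ratios.
let-7i-5p: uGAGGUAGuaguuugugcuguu
miR-98-5p: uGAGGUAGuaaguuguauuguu
let-7f-5p: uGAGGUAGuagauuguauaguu
let-7c-5p: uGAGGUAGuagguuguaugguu
let-7a-5p: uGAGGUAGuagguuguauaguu
let-7b-5p: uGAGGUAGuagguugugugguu
let-7d-5p: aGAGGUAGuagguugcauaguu
The second set is the miR-181 family, in which every member was above Input.
miR-181a-5p: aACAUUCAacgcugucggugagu
miR-181b-5p: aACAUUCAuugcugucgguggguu
miR-181c-5p: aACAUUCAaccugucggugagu
miR-181d-5p: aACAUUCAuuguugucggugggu
The last set holds abundant miRNAs with high ratios, followed by the miRNAs with the lowest ratios.
miR-92a-3p: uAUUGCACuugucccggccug
miR-25-3p: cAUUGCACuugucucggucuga
miR-101a-3p: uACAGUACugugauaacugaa
miR-340-5p: uUAUAAAGcaaugagacugauu
miR-2137: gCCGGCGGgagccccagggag
miR-3968: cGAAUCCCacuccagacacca

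In GRCm38, let-7i-5p lies at chr10:122985698-122985719 on the minus strand, overlapping an exon of D630033A02Rik, and miR-98-5p at chrX:151913229-151913250 on the plus strand, in an intron of Huwe1. miR-181c-5p and miR-181d-5p lie at chr8:84178924-84178945 and chr8:84178759-84178781, both on the minus strand in an intron of Nanos3. miR-25-3p lies at chr5:138165332-138165353 on the minus strand inside Mcm7, the host of the miR-106b cluster. miR-340-5p lies at chr11:50069720-50069741 in an intron of Rnf130 and miR-2137 at chrX:72992113-72992133 in an intron of Zfp185, both on the plus strand. miR-101a-3p lies at chr4:101346957-101346977 on the minus strand, overlapping an exon of E130102H24Rik. miR-3968 lies at chr11:115447969-115447989 on the minus strand, outside annotated host genes.

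The classes of small RNA separated along the ratio. Mature miRNAs had a median log2 ratio of 0.44 (95% interval of the median over entries 0.35 to 0.58, n = 297), and they held 96.5% of the Sfpq RNA-IP against 84.7% of Input. SnoRNAs, guides of rRNA modification, had a median of −0.48 but a wide spread, with quartiles at −2.09 and 1.31 (n = 210). The medians were −1.79 for piRNA entries (n = 79), −3.13 for tRNAs (n = 157) and −6.23 for rRNAs (n = 30). tRNA entries held 0.640% of the Sfpq RNA-IP against 6.06% of Input, and rRNA entries held 0.0358% against 0.721%. Over all 773 entries, 148 were above Input, 19.1% of those compared, and 350 were below, 45.3%. Counting error was small against these differences, with a median SE of 0.089 on the log2 scale, and for 128 of the 148 entries above and 323 of the 350 below the 95% counting interval lay wholly beyond 2-fold. On shares of the column sum, 83 entries were above and 411 below, so that 16.8% of the calls were above rather than 29.7%.

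**Figure D1:**
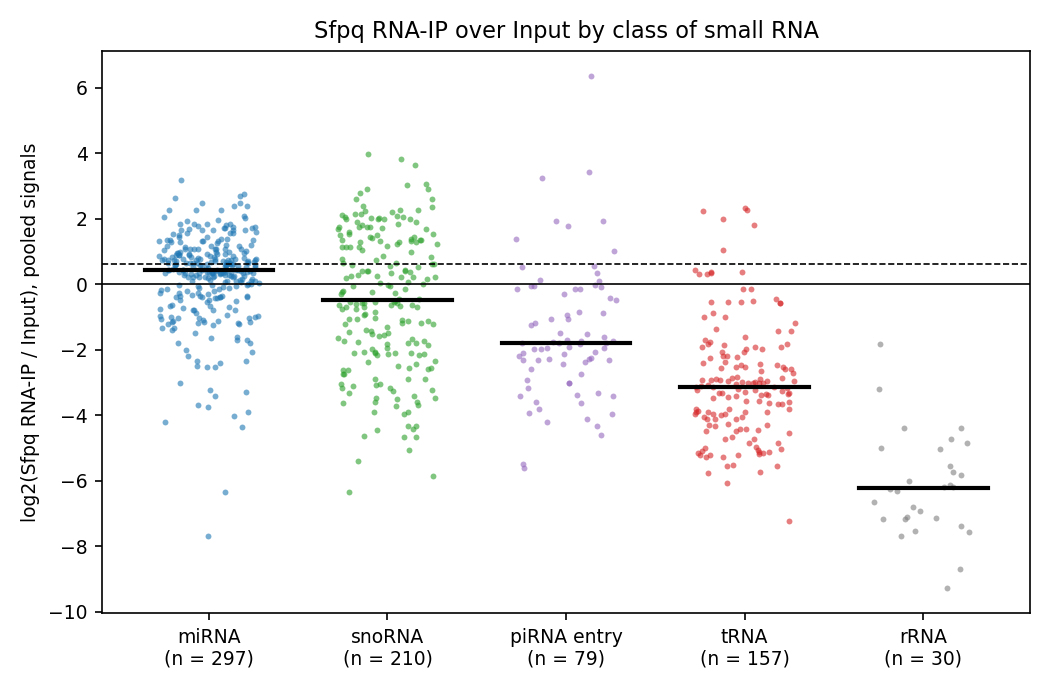
Log2 ratio of the pooled Sfpq RNA-IP signal to the pooled Input signal (vertical axis, log2) for each entry with a mean of at least 20, by class, with points spread sideways for legibility. Each point is 1 entry, the thick bar is the class median, the thin line is a ratio of 0 and the dashed line at 0.63 is the ratio at which the share of the column is unchanged. miRNA points centre on 0.44 and all rRNA points lie below 0.

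The Sfpq RNA-IP was concentrated on few RNAs. In it 5 entries held 50% of the signal, 31 held 90% and 184 held 99%, against 7, 62 and 336 entries in Input. Counted over miRNAs alone the difference was small, with 24 miRNAs holding 90% of the miRNA signal in the Sfpq RNA-IP and 28 in Input. The same abundant miRNAs led both groups: 9 of the 10 highest, 18 of the 20 highest and 46 of the 50 highest were shared. Across the 297 miRNAs Spearman's rho between the signals was 0.92, given as a description because the miRNAs share libraries and are not independent replicates.

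Within this shared order, let-7i-5p moved from rank 3 in Input to rank 1. It had 1334890 units of signal with Sfpq against 518068 in Input, or 13.4% against 8.03% of all signal, a gain of 5.37 percentage points and the largest of any entry. let-7c-5p, rank 1 in Input, was second in the Sfpq RNA-IP with 12.6% against 14.3%. miR-92a-3p, a product of the growth-promoting miR-17-92 transcript, was at rank 3 in the Sfpq RNA-IP and rank 2 in Input, with 12.5% against 8.63% of all signal. Of the other 12 among the 15 most abundant RNAs, let-7f-5p gained 1.30 points, miR-7a-5p 1.01, miR-181a-5p 0.985, miR-181b-5p 0.722, miR-182-5p 0.719, miR-98-5p 0.519 and miR-26b-5p 0.469. miR-221-3p (7.17% against 7.05%), miR-222-3p (3.64% against 3.75%) and miR-21a-5p (3.57% against 3.65%) held nearly the same share of both groups. let-7a-5p (4.46% against 5.10%) and let-7b-5p (3.79% against 4.48%) held less of the Sfpq RNA-IP. miR-25-3p and miR-103-3p complete the 10 largest gains, with 0.635 and 0.610 points.

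The largest loss of share was that of a piRNA entry, mmu_piR_000691, which held 3.74% of Input and 0.0535% of the Sfpq RNA-IP. Below let-7c-5p, the further losses among miRNAs were let-7b-5p, let-7a-5p, let-7d-5p (1.93% to 1.33%), miR-5099 (0.557% to 0.0782%) and let-7g-5p (1.28% to 0.964%). The remaining losses among the 10 largest were the piRNA entry that joins mmu_piR_039147, mmu_piR_039114 and mmu_piR_000159 (1.02% to 0.136%), mmu_piR_000935 (0.330% to 0.00434%) and the tRNA(Glu) gene n-TEctc13 (0.312% to 0.0116%), whose neighbour in level, n-TEctc11, had almost the same values.

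**Figure D2:**
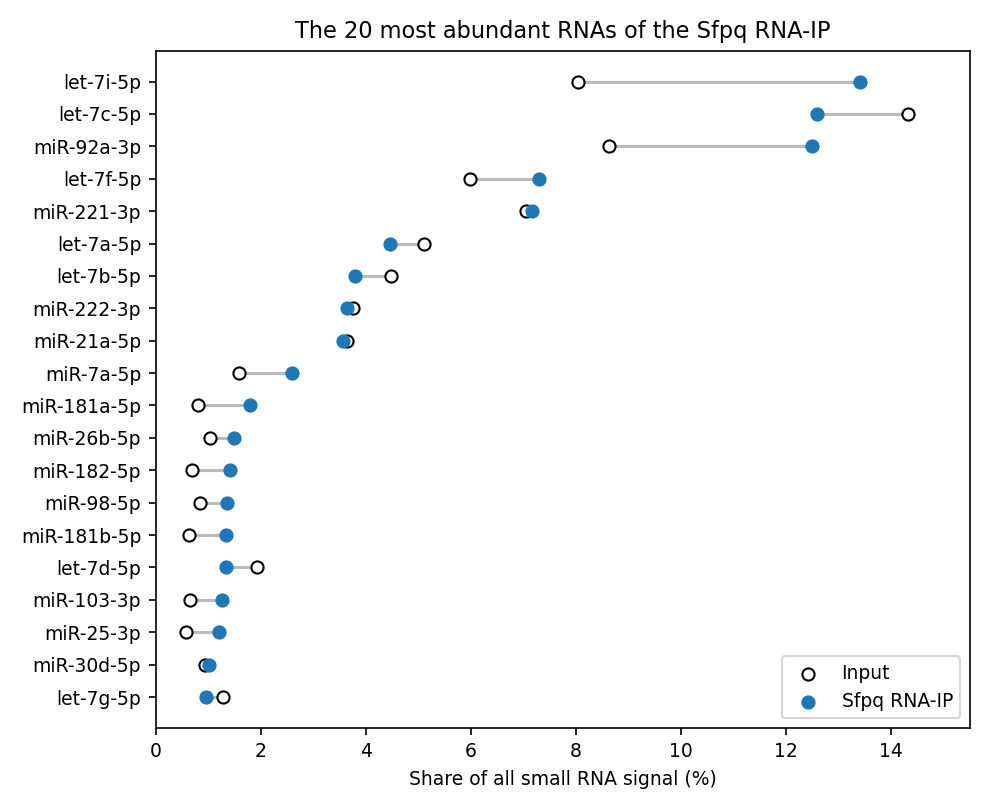
Share of all small RNA signal (horizontal axis, percent) held by the 20 most abundant RNAs of the Sfpq RNA-IP, all of them miRNAs. Filled points are the Sfpq RNA-IP, open points are Input, and the line joins the values of 1 miRNA. let-7i-5p moves from 8.03% to 13.4%, whereas let-7c-5p moves from 14.3% to 12.6%.

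Among the 297 miRNAs, 70 were above Input (23.6%) and 48 below (16.2%). Ratios were higher at higher levels, with medians of 0.12, 0.33, 0.60 and 0.72 in miRNAs with a mean of 20 to 100, 100 to 1000, 1000 to 10000 and 10000 or more. Only 4 of the 109 miRNAs with a mean of at least 1000 were below Input, and 34 were above. The highest ratio was that of miR-5121, with 309.9 in the Sfpq RNA-IP and 33.8 in Input (log2 ratio 3.20, SE 0.15), which overlaps an annotated exon of the ribosomal protein gene Rpl13a. miR-5117-3p followed with 2295 against 337.3 (2.77), then miR-181c-5p with 657.4 against 102.5 (2.68), miR-15a-3p with 58.1 against 9.32 (2.64) and miR-3089-3p with 34.1 against 6.09 (2.49). miR-365-3p (2.48), miR-340-5p (2.40), miR-101a-3p (2.38), miR-542-3p (2.28) and miR-101b-3p (2.26) made up the rest of the 10 highest. Of these, miR-340-5p (11638 against 2205), miR-101b-3p (10844 against 2269) and miR-101a-3p (4859 against 931) were also abundant, and their counting SEs were at most 0.030. miR-101 is known for repressing the Polycomb methyltransferase Ezh2.

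At the other end, miR-2137 had a signal of 1.75 against 361.6 in Input (log2 ratio −7.69, SE 0.59). miR-3968 followed with 0.511 against 41.9 (−6.36, SE 1.10), which rests on few reads. The others among the 10 lowest were miR-5097 at −4.37, miR-6239 at −4.21, the minor arms miR-326-5p at −4.03, miR-27a-5p at −3.91 and miR-92a-1-5p at −3.40, and miR-5115 at −3.74, miR-5105 at −3.69 and miR-3096a-3p at −3.29. miRNAs whose names carry no arm label were more often below Input, 14 of 30 with a median of −0.33, than those with a 5p or 3p label, 34 of 267 with a median of 0.45.

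Families that share a seed were compared for 11 seeds with 3 or more members, 45 miRNAs in all, among the 252 of the 297 miRNAs that matched a RefSeq sequence. The miR-181 family, known from haematopoietic and immune cells, had all 4 members above Input, against 23.6% of all miRNAs. miR-181a-5p had 178980 against 52383 (1.77), miR-181b-5p 134002 against 40241 (1.74), miR-181c-5p 2.68 and miR-181d-5p 3551 against 1292 (1.46), and together they held 3.19% of the Sfpq RNA-IP and 1.46% of Input. The miR-34/449 family, whose miR-34a is a target of p53, had a median of 1.73, carried by miR-449c-5p (1.83) and miR-449a-5p (1.73), while the abundant miR-34a-5p stood at 0.55. In the miR-25/92 family, miR-25-3p (1.70) and miR-92a-3p (1.16) were above Input and miR-92b-3p was at 0.33. The miR-15/16 family, which represses cyclins and Bcl2, had 3 of 5 members above, among them miR-15b-5p with 581.6 against 162.1 (1.84), and miR-16-5p was at 0.75.

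The let-7 guide family, which restrains Lin28 and growth genes, was the largest part of both groups. Its 10 members held 45.6% of the Sfpq RNA-IP and 42.4% of Input, but 47.2% of the miRNA signal of the Sfpq RNA-IP against 50.1% of that of Input. The median log2 ratio was 0.43, and the members were spread widely for RNAs with a common seed. let-7i-5p (1.37) and miR-98-5p (135346 against 54191, 1.32) were above Input, and let-7f-5p had 725989 against 386258 (0.91). let-7c-5p (1253670 against 924207, 0.44), let-7a-5p (444524 against 329204, 0.43), let-7e-5p (0.43) and let-7b-5p (377428 against 289045, 0.38) lay together. let-7k (0.28), let-7g-5p (0.22) and let-7d-5p (132791 against 124587, 0.09) were lowest. Counting error did not exceed 0.0064 for any of these except let-7k (0.16), so the gap between let-7i-5p and let-7d-5p is far beyond counting error, whereas its size against the spread between libraries is unknown. In share, let-7i-5p, miR-98-5p and let-7f-5p gained and the other 7 lost. let-7j, whose seed differs in its last base, is not counted here and was above Input (31449 against 14859, 1.08).

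The miR-30 and miR-29 families had medians of 0.97 and 0.78 over members with a RefSeq sequence, each with 1 of 3 above, miR-30a-5p (1.58) and miR-29b-3p (1.81). Also named miR-30, miR-30b-5p was above Input (1.09) and miR-30d-5p was at 0.74. The miR-17/93/106b family had a median of 0.65 with none of 4 above, close to the ratio at which the share of the column is unchanged, and miR-106b-5p was at 0.83. The miR-125/351 family had a median of 0.35. The miR-99/100 family was the only one of the 11 with a median below 0, at −0.40. It had 8132 against 13286 for miR-99b-5p (−0.71), 89.1 against 117.8 for miR-100-5p (−0.40) and 5714 against 6171 for miR-99a-5p (−0.11). The rare passenger strands of let-7 that share the seed UAUACAA had a median of 0.85. Passenger strands with other seeds went both ways. The more abundant let-7d-3p had 1666 against 2037 (−0.29), let-7e-3p was at −0.77, let-7c-1-3p at −1.80 and let-7f-2-3p at 1.75.

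Of the other miRNAs the study named, miR-21a-5p had 355121 against 235118 (0.59), miR-24-3p 44917 against 32351 (0.47), miR-125b-5p 1076 against 700.4 (0.62) and miR-23b-3p 1687 against 1424 (0.24). All 4 held a similar or smaller share of the Sfpq RNA-IP than of Input. miR-31-5p had 1.75 in the Sfpq RNA-IP and 0 in Input, below the minimum for a ratio.

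Macrophage-associated miRNAs went in different directions. miR-142-3p, a marker of blood cells, had 3116 against 750.3 (2.05), and miR-342-3p had 132.3 against 284.4 (−1.10). miR-132-3p (0.92), miR-155-5p (0.61), miR-21a-5p (0.59), miR-223-3p (0.53), miR-146a-5p (44152 against 46207, −0.07) and miR-142-5p (2433 against 3807, −0.65) lay within 2-fold, which leaves 1 of 8 above and 1 of 8 below, beside 23.6% and 16.2% of all miRNAs. The guides of the miR-17-92 transcript and its sister transcript had 4 of 9 above, beside 23.6% of all miRNAs, with a median of 0.91: miR-25-3p, miR-19a-3p (1.30), miR-92a-3p and miR-19b-3p (1.08).

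The arms of 1 hairpin come from the same precursor, and their ratio within a group does not depend on how a column was scaled. For 111 hairpins with a summed mean of at least 100, the arm that was minor in Input took a smaller share of the hairpin in the Sfpq RNA-IP in 73 and a larger one in 38. The limit applies to the hairpin and not to the minor arm, so some of these minor arms rest on few reads. Examples are miR-320-5p with 0.256 against 4.66 in Input and let-7g-3p with 7.05 against 0.501. The minor arm's median share was 1.33% against 2.22% in Input. Among the 76 hairpins with a summed mean of at least 1000, a limit set after the values were seen, the minor arm was lower in 56. This limit, too, sets no minimum for the minor arm itself.

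Single hairpins moved further. The 5p arm of miR-27a made up 34.4% of its hairpin in Input (725.7 of 5p, 1386 of 3p) and 1.76% in the Sfpq RNA-IP (48.4 and 2704). miR-326 was alike, with 34.2% and 1.71%. The major arm changed in 4 hairpins. miR-142 went from 83.5% 5p in Input (3807 of 5p, 750.3 of 3p) to 43.8% in the Sfpq RNA-IP (2433 and 3116), and miR-223, another myeloid miRNA, from 64.6% to 35.7%. miR-30b went the other way, from 33.7% 5p (414.0 and 813.2) to 73.4% (880.7 and 320.0), and miR-450b from 28.4% to 61.5%. The further shifts toward 3p were miR-5117 (69.0% to 51.4% 5p) and miR-99b (94.3% to 79.8%), and toward 5p miR-374b (54.0% to 83.0%), miR-1843b (74.8% to 96.9%), miR-18a (61.5% to 79.5%) and miR-322 (72.4% to 89.2%).

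**Figure D3:**
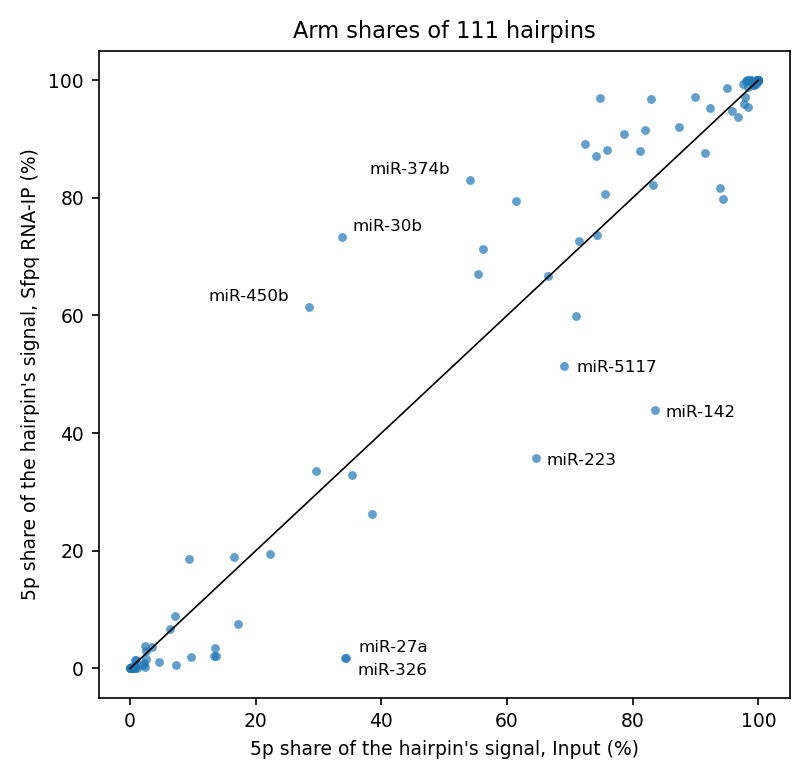
Share of a hairpin's signal that came from the 5p arm in Input (horizontal axis, percent) and in the Sfpq RNA-IP (vertical axis, percent), 1 point per hairpin for 111 hairpins, with equality as the line. miR-142 and miR-223 fall below the line and cross from mostly 5p to mostly 3p, miR-30b and miR-450b cross the other way, and miR-27a and miR-326 drop from about 34.4% and 34.2% to under 2%.

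Sequence composition varied with the ratio. Of the 252 miRNAs with a RefSeq sequence, 60 were above and 35 below Input, with a median of 0.44, against which the counts of the classes below are read. The 45 miRNAs with under 40% G+C had a median log2 ratio of 0.91, with 21 above and 2 below Input. The median was 0.56 for 86 miRNAs with 40% to under 50% G+C, 0.33 for 81 with 50% to under 60% and −0.04 for 40 with 60% or more, of which 4 were above and 10 below. miR-340-5p at 27.3% G+C (2.40) and miR-2137 at 85.7% (−7.69) followed this order. The miRNA lowest in G+C, miR-190a-5p at 22.7%, was at 0.59. Single miRNAs also went against the order, such as miR-32-3p (28.6%, −0.42) and miR-700-3p (71.4%, 1.31). Spearman's rho between G+C and the log2 ratio was −0.34 across the 252 miRNAs, a description over RNAs that share libraries and, within families, sequence. Among miRNAs with a mean of at least 1000, a limit set after the values were seen, the medians were 1.08, 0.75, 0.55 and 0.42 in the same order (17, 39, 27 and 9 miRNAs), and rho was −0.20. The Ago2 RNA-IP shares the Input libraries but not their scaled values. Its medians of the 4 classes from low to high G+C were 0.53, 0.57, 0.36 and 0.43.

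**Figure D4:**
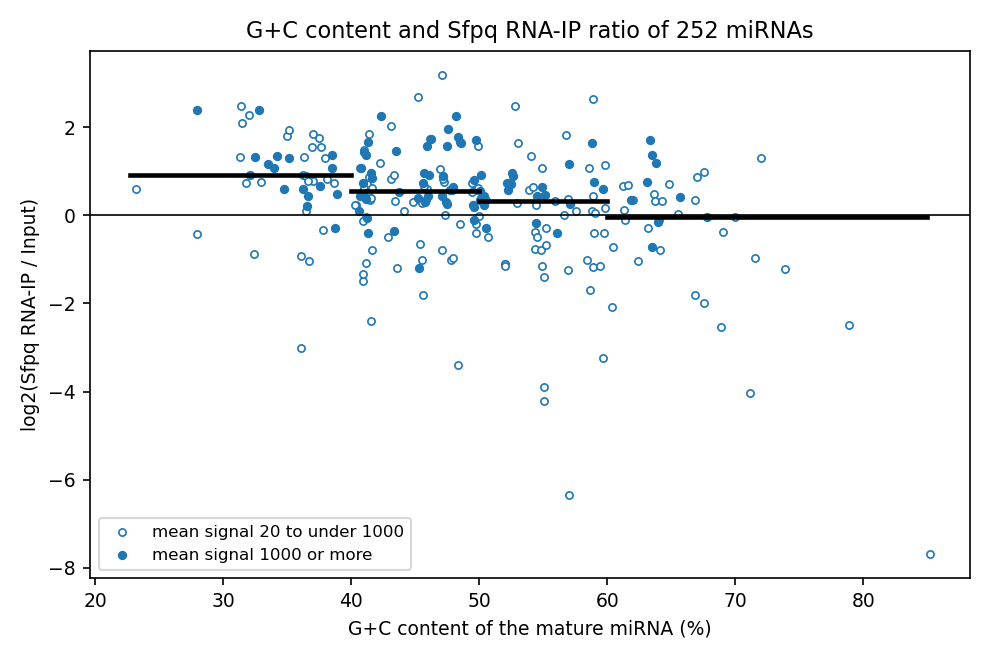
G+C content of the mature miRNA (horizontal axis, percent, points shifted slightly for legibility) against log2 of Sfpq RNA-IP over Input (vertical axis) for 252 miRNAs. Filled points have a mean signal of at least 1000, open points 20 to under 1000, and thick bars are the medians of the 4 G+C classes, which step down from 0.91 to −0.04.

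miRNAs that begin with U, the base that Argonaute proteins favour at the 5′ end, had a median of 0.61 (32 of 97 above, 6 below), those with A 0.32 (n = 72), those with C 0.51 (n = 56) and those with G −0.10 (3 of 27 above, 10 below). The words CUGU and CUGA, which the study's methods give for Sfpq, were found in 77 of the 252 miRNAs, 30.6%, and in 27.0% of all RefSeq mature mouse miRNAs; they were sought on the miRNA strand alone and either word counted once. miRNAs with a word had a median of 0.59 and those without 0.40. For CUGU alone the median was 0.78, with 21 of 45 above, and for CUGA 0.52; miRNAs with both words count under each. In the Ago2 RNA-IP the medians with and without CUGU or CUGA were 0.71 and 0.39. The longer words, CUGUA with its variants that begin with another base (AUGUA, or the same word with U or with G in first place), were found in 23 miRNAs, 9.13% (6.67% of all RefSeq mature mouse miRNAs), with a median of 0.43 against 0.45 without; the first of them contains CUGU.

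SnoRNAs split by the prefix of their names, which sorts them by kind only in part. Of 210 snoRNA entries 64 were above Input (30.5%) and 85 below (40.5%). Entries with the prefix SNORD, box C/D snoRNAs that guide 2′-O-methylation, had 52 of 109 above and 24 below with a median of 0.65. Their share was 1.28% of the Sfpq RNA-IP against 0.578% of Input. Box H/ACA snoRNAs, which guide pseudouridylation and carry the prefix SNORA, had 4 of 39 above and 19 below with a median of −0.94. SCARNA entries, guides for snRNAs in Cajal bodies, had a median of −1.83 (n = 9), with SCARNA3 at 1920 against 634 (1.60) the only one above. The 53 entries with other names, U1 and U3 among them, were lowest, with 7 above, 36 below and a median of −2.09. U3 is itself a box C/D snoRNA, so the SNORD counts do not cover all box C/D entries. The ratio varied with level. The median was −1.30 for the 86 snoRNAs with a mean of 20 to 100, 0.40 for the 97 between 100 and 1000 and 1.51 for the 25 between 1000 and 10000.

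The highest snoRNA was a SNORA29 entry in an intron of G3bp1, with 198.9 against 12.5 (3.99, SE 0.24). SNORD101, in the ribosomal protein gene Rps12, had 18922 against 1346 (3.81) and SNORD74, in the growth-arrest noncoding gene Gas5, 18932 against 1501 (3.66). SNORD12 in Zfas1 (4025 against 486.2, 3.05) and SNORD18 in Rpl4 (4796 against 584.9, 3.04) followed. Most snoRNAs are cut from introns of a host gene. Hosts were assigned here by position alone, and entries within 1 gene were alike in part. Of 7 snoRNAs of Gas5, 6 were above, among them SNORD75 (2.62) and SNORD24 (2.02), with a median of 2.02. The 3 SNORD12 entries of Zfas1 (2.01 to 3.05) and the 3 SNORD58 entries of Rpl17 (1.22 to 1.33) were above as well. In contrast, the 4 U3 entries that lie within Tex14 were below (median −2.08), and the 3 entries in Eif4a2 had a median of −3.90. The lowest values were SNORA42 (0.511 against 41.5, −6.34, SE 1.10), 3 different values of U1 entries (−5.86, −5.39 and, for a pair of copies with identical values, −4.66) and SNORA81 (−5.07 and −4.65). U1 is a splicing snRNA that the table files under snoRNAs.

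tRNA entries were mostly depleted, with 134 of 157 below Input (85.4%) and 6 above (3.82%), but the isotypes differed. The genes are near-identical copies in part, so reads may be split between genes of 1 isotype, and 184 of 224 entries matched a RefSeq tRNA gene. tRNA(Gln) stood apart. n-TQctg9 at chr9:64738046-64738117 had 7244 against 1451 (2.32, SE 0.024), n-TQctg4 at chr3:96399059-96399130 had 5202 against 1098 (2.24) and n-TQctg2 at chr3:97681459-97681530 had 3177 against 796.9 (2.00). All 3 have the anticodon CUG, and n-TQctg9 was the most abundant tRNA entry of the Sfpq RNA-IP and rank 50 among tRNAs in Input. The other tRNA(Gln) genes were n-TQttg3 (0.38) and n-TQctg10 (−1.17). In the Ago2 RNA-IP the log2 ratios of n-TQctg9, n-TQctg4 and n-TQctg2 were −0.32, −0.34 and −1.04.

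The other entries above Input were n-THatg1, annotated as tRNA(His) (249.5 against 71.8, 1.80), n-TGccc6 of tRNA(Gly) (3748 against 1819, 1.04) and mitochondrial mt-Tn (37.4 against 7.71, 2.28, SE 0.33). tRNA(Met) had a median of −0.56, with 5 genes between −0.50 and −0.56, at which the Ago2 RNA-IP had −4.37 to −4.64. Depletion was strongest for tRNA(Cys) (median −5.14, 5 of 5 below), tRNA(Leu) (−4.86, 7 of 7), tRNA(Val) (−4.18, 9 of 12) and tRNA(Glu) (−4.12, 8 of 8). The 5 lowest single genes were n-TAtgc2 (0.292 against 43.9, −7.23, SE 1.45), n-TDgtc2 (−6.06), n-TAcgc8 (−5.76), n-TCgca48 (−5.73) and n-TVaac8 (136.1 against 6400, −5.56).

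**Figure D5:**
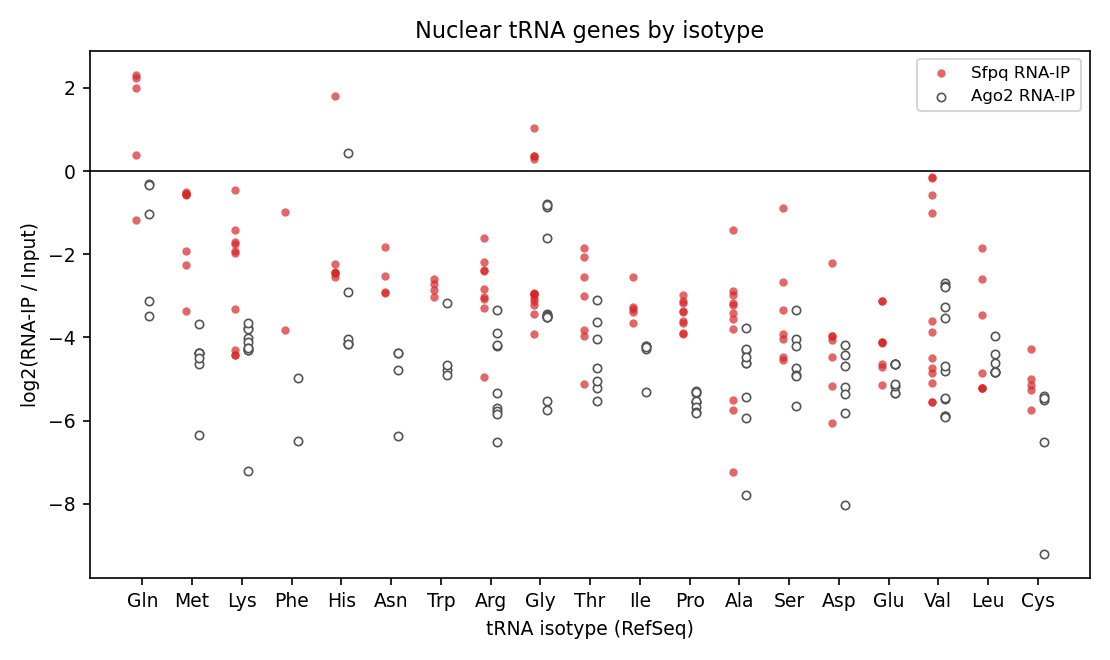
Log2 ratio of RNA-IP over Input (vertical axis) for nuclear tRNA genes with a mean of at least 20, by RefSeq isotype (horizontal axis, ordered by the Sfpq median). Filled points are the Sfpq RNA-IP and open points the Ago2 RNA-IP, 1 per gene, both against the same Input libraries. The scaled Input values differ between the Sfpq and Ago2 comparisons. The 3 tRNA(Gln) genes near 2 are the highest filled points, and most other filled points lie between −1 and −6.

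Among 7 mitochondrial tRNAs with a mean of at least 20, the 3 encoded on the minus strand of the mitochondrial genome, in one cluster of tRNA genes, were highest in the Sfpq RNA-IP: mt-Tn (chrM:5089-5159), mt-Ty (488.9 against 358.8, 0.45) and mt-Ta (261.0 against 678.5, −1.38). Their Ago2 log2 ratios were −1.86, −3.24 and −5.11. The 4 on the plus strand were lower, with mt-Ti at −2.91, mt-Tl1 at −3.57, mt-Tl2 at −4.29 and mt-Tf at −5.13.

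All 30 rRNA entries with a ratio were below Input, and a further 4 with a mean of at least 20 were at 0 in the Sfpq RNA-IP, with up to 160.4 in Input. The 28 entries of 5S rRNA with a ratio had a median of −6.29. All 82 entries of 5S rRNA, those at 0 or under the minimum included, summed to 343.5 against 26459, or 0.00345% against 0.410% of all signal. The 5 lowest lay between −9.26 (0.292 against 179.6, SE 1.44) and −7.53. The 5.8S rRNA entry was the least depleted, with 3075 against 10868 (−1.82), and the mitochondrial small subunit rRNA was at −6.02 (141.5 against 9154).

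Of 79 piRNA entries, sequences that match a piRNA database, 53 were below (67.1%) and 8 above (10.1%), beside 45.3% and 19.1% of all small RNAs. piRNAs act in germ cells, and what these entries are in the present cells was not tested. mmu_piR_012087 had 163.5 against 2.00, the highest ratio of any entry (6.35, SE 0.59), and 8.70 against 2.38 in the Ago2 RNA-IP (1.87). mmu_piR_022877 (10338 against 965.1, 3.42), mmu_piR_003399 (968.9 against 103.1, 3.23), mmu_piR_034793 (1.94) and mmu_piR_015668 (1.94) followed. The lowest were mmu_piR_000935 (−5.62), mmu_piR_000691 (5329 against 240955, −5.50), mmu_piR_000620 (−4.61), mmu_piR_000705 (−4.32) and mmu_piR_002945 (−4.21).

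Set beside the Ago2 RNA-IP on the same entries, and against the same Input libraries, the median log2 ratio of miRNAs was 0.44 with Sfpq and 0.46 with Ago2. The medians of the other classes were −0.48 and −0.67 for snoRNAs, −1.79 and −3.50 for piRNA entries, −3.12 and −4.62 for tRNAs (155 entries) and −6.23 and −7.09 for rRNAs (22 entries). Of the 11 seed families, the rare let-7 passenger strands with the seed UAUACAA had 0.85 with Sfpq and −0.77 with Ago2. The miR-99/100 family had −0.40 and 0.73, and miR-17/93/106b had 0.65 and −0.16. All the other families had positive medians with both. Among them were miR-181 (1.75 and 1.26), miR-25/92 (1.16 and 1.65), miR-30 (0.97 and 0.96) and the let-7 guides (0.43 and 0.44). SNORD entries likewise had 0.65 with Sfpq and 0.50 with Ago2. miR-7a-5p (257826 against 101765) had 1.34 and 0.38, and miR-210-3p, a miRNA of the hypoxia response, had 1.71 (31014 against 9500) and 0.47. miR-146a-5p had −0.07 and 1.09. The entry given here as mmu_piR_039114 had 1.78 and −3.52, whereas the entry that joins this name with mmu_piR_039147 and mmu_piR_000159 lost share in the Sfpq RNA-IP. With 1 pooled value per group, and Input in common, these differences were not tested. The same Input libraries carry different scaled values beside Sfpq and beside Ago2, with 678.5 and 769.0 for mt-Ta and 358.8 and 413.1 for mt-Ty. The ratio of column sums was computed for Sfpq alone, so Sfpq and Ago2 ratios may be offset from each other. Small gaps between them, and differences of sign such as that of miR-17/93/106b, may come from scaling.

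Entries with no signal on one side were common among low values. In the Sfpq RNA-IP 466 entries were at 0 and in Input 287, with signals on the other side of at most 160.4 and 6.92. Set against a floor of 3 reads over the group, 181 of the former were at least 2-fold lower in the Sfpq RNA-IP and 31 of the latter at least 2-fold higher.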

How the data were processed

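The study sequenced small RNAs on a SOLiD platform. Its methods name LifeScope 2.5.1 and the omiRas webserver for mapping, normalisation and comparison, while cutadapt and the build mm10 come from the submitters' processing notes. The labels and the methods differ in the library kit, and 2 antibodies against Sfpq are named without saying which library used which. The authors deposited 1 signal per entry and group, pooled over 3 libraries and scaled. Signals below 2 were whole multiples of 3 weights within 1e-05 (445 of 445 in Sfpq RNA-IP, 396 of 396 in Input), from which reads per unit were taken. A value of 20 corresponded to 68.5 and 59.3 reads, and totals to about 34111358 and 19131293. Depth of single libraries is unknown. The authors' log2, p-value and false discovery rate columns, and their lists of selected RNAs, were not used.

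Log2 ratios used no pseudocount, a mean of at least 20 and a 2-fold limit. Intervals of counting error are 95% and treat reads as independent molecules. Medians carry the 95% interval of order statistics. Seeds, G+C content and words came from RefSeq sequences (473 of 549 miRNAs matched), hosts from GENCODE vM21. Named were the 15 largest shares, the 10 largest gains and losses of share, the extremes of each class (10 for miRNAs, 5 elsewhere), the 6 largest arm shifts each way, seed families of at least 3, miRNAs named by the study and marker lists; other names were chosen after their values were seen. The members and lists were chosen with earlier results of these data known. Alternatives were shares of the column or miRNA sum, a pseudocount of 10, no minimum, a mean of at least 100, a 4-fold limit and identical values counted once. Python 3.11.15, pandas 2.3.3, NumPy 2.4.6 and SciPy 1.17.1 were used, and the scripts were tested on simulated data.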

Additional observations from a re-analysis of the deposited data

How the results depend on the processing

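No paired analysis was possible because each group has 1 pooled value, and for the same reason no replicate could be left out. On shares of the column sum (a shift of 0.63 on the log2 scale) 83 small RNAs were above Input in place of 148, 33 miRNAs were above and 73 below in place of 70 and 48, and the medians were −0.19 for miRNAs (reversed), −1.11 for snoRNAs, −3.76 for tRNAs and −2.42 for piRNA entries. On shares of the miRNA sum (a shift of 0.82) the counts were 61, 20 and 84 and the medians −0.38, −1.30, −3.95 and −2.60. Family and list medians that turned negative were let-7 (−0.20 on the column sum, −0.39 on the miRNA sum), miR-125/351 (−0.27, −0.46), macrophage miRNAs (−0.065, −0.25), epithelial miRNAs (−0.48, −0.67) and, on the miRNA sum alone, miR-29 (−0.036) and miR-17/93/106b (−0.17). A pseudocount of 10 gave medians of −2.76 for tRNAs and −4.20 for rRNAs. Without a minimum 527 small RNAs and 81 miRNAs were below, piRNA entries had a median of −1.33 and mirtrons one of 0.030. With a mean of at least 100, 223 small RNAs and 23 miRNAs were below and the snoRNA median was 0.74, reversed because the rarer snoRNAs had low ratios. At 4-fold 45 small RNAs were above, and 14 miRNAs were above and 20 below. With identical values counted once, shares of the Sfpq RNA-IP were 96.6% miRNA, 1.55% snoRNA and 0.604% tRNA, and those of Input 85.2% miRNA, 1.16% snoRNA, 5.56% tRNA, 7.38% piRNA entries and 0.725% rRNA. The median of miRNAs with 60% G+C or more was 0.42 at a mean of at least 1000, an alternative chosen after seeing the data. The other class, family and list medians that were recomputed kept their sign. Family and list medians were not recomputed at a mean of at least 100 or with identical values counted once. Medians by G+C, first base, word, arm label, host gene, snoRNA kind and tRNA isotype were not recomputed on shares. Positive ones smaller than the shift would be negative there.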

Other observations

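The listed miRNAs that bypass the Drosha step of processing, such as mirtrons and the capped-precursor miRNA miR-320-3p, went both ways by less than 2-fold. None of 6 with a mean of at least 20 was above or below Input, with a median of −0.06. miR-320-3p, the most abundant, had 21541 against 19425 (0.15), miR-484 had 2814 against 3141 (−0.16) and miR-877-5p 269.7 against 264.0 (0.03), while miR-1981-5p was at 0.76, miR-1249-3p at −0.78 and miR-5132-5p at −0.96. As a group the listed miRNAs held 0.280% of the Sfpq RNA-IP and 0.385% of Input. Among other arms of the same hairpins, not listed, miR-702-5p (59.8 against 121.9, −1.03) and miR-1981-3p (21.5 against 47.7, −1.15) were below Input. miR-877-3p was at −0.40.

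miRNAs linked to p53 and the cell cycle had 4 of 7 above and none below (median 1.26, or 0.88 with a pseudocount of 10), against 23.6% of all miRNAs above. Those above included miR-449c-5p and miR-449a-5p of the miR-34/449 family and the rare miR-215-5p (41.9 against 14.2). The most abundant, miR-34a-5p (0.55) and miR-192-5p (0.89), were within 2-fold, as was miR-194-5p (0.59). The list held 0.0592% of the Sfpq RNA-IP and 0.0535% of Input. miR-9-5p, best known from neurons, had 314.6 against 82.6 (1.93), and miR-128-3p 2274 against 1517 (0.58). Of the hypoxia miRNA miR-210, the 3p arm was above and the 5p arm below Input, with 59.7 against 238.5 (−2.00). Epithelial miRNAs had 5 of 5 members with signal, 2 of them at a mean of at least 20 with a median of 0.15. miR-486-5p, an erythroid miRNA, had 45.0 against 27.8 (0.69), the muscle miRNA miR-1a-3p had 0.767 against 0.751, and the lymphoid list had no member with signal.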
